A study of Mus musculus with 8 samples.

Results

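The miRNAs described here are 5 mature strands from 3 hairpins: mmu-miR-210-5p and mmu-miR-210-3p, mmu-miR-34a-5p and mmu-miR-34a-3p, and mmu-miR-34c-5p. The species prefix is left out below. They were picked by name from a count table of 1907 mature mouse miRNAs, with no threshold on their values, although earlier results of these data were known when they were chosen. The libraries are small RNA-seq of bone marrow-derived macrophages from wild-type mice aged 8 to 12 weeks. Both groups shared a 6-day differentiation of marrow cells in L929 supernatant, which supplies M-CSF. The control group (3 libraries) was left without LPS. The LPS group (3 libraries) was exposed for 3 h to LPS at 100 ng/ml, a bacterial wall component that Toll-like receptor 4 senses. The labels used here name no strain. They also leave it unsaid whether replicates were separate mice or dishes, so each p-value reflects the spread among these libraries alone, which could be technical. The series also holds 2 samples of a 3C-seq assay, not analysed here.

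miRNAs are cut from a hairpin precursor, and each side of the stem can give a mature strand, named 5p or 3p. Usually 1 strand is loaded into Argonaute and kept while its partner is degraded, so the abundant arm is the main repressor. Bases 2 to 8 of the strand, the seed, select most target mRNAs. miR-210 is the miRNA best known for induction by hypoxia-inducible factors when oxygen is low, and its 3p arm represses Iscu, an iron-sulfur cluster scaffold of mitochondria, and the ephrin Efna3. In macrophages miR-210 has also been reported to target Nfkb1. miR-34a, miR-34b and miR-34c are direct transcriptional targets of p53, and they restrain the cell cycle and survival through mRNAs such as Cdk6, Met and Bcl2.

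The sequences below show why the miR-210 arms and the miR-34 arms are treated as unrelated groups, and why the miR-34 arm is read together with its seed relatives. They are RefSeq mature strands on GRCm38.p6, 5′ to 3′, with the seed in capitals, and 4 of the 5 strands were matched.
miR-210-5p: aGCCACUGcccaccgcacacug
miR-210-3p: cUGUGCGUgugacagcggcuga
miR-34a-5p: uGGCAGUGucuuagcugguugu
miR-34a-3p: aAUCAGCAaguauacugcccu
miR-34b-5p: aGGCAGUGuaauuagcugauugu
miR-449a-5p: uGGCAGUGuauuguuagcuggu
miR-449c-5p: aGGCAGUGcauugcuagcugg

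No other miRNA of the table with a RefSeq sequence (1623 of 1907) had the seed of miR-210-5p, miR-210-3p or miR-34a-3p. The seed of miR-34a-5p was found in 3 others: miR-34b-5p, miR-449a-5p and miR-449c-5p. miR-34c-5p was the strand without a RefSeq entry. Its seed was not compared, and its absence from this list says nothing about it. Counted from the 5′ end, miR-34a-5p and miR-449a-5p are identical through base 9, and the first difference is C10A (miR-34a-5p base first). miR-34b-5p differs from miR-34a-5p at the 5′ base, U1A, and matches it from base 2 through base 9. The miR-210 strands are rich in G and C (68.2% for 5p and 63.6% for 3p), against 50% for miR-34a-5p and 42.9% for miR-34a-3p. Each of the 4 matched strands came from a single hairpin.

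The hairpins themselves show how the arms pair. Both are given 5′ to 3′ from RefSeq on GRCm38.p6, with the mature 5p and 3p strands in capitals.
Mir210, chr7:141221384-141221493, minus strand: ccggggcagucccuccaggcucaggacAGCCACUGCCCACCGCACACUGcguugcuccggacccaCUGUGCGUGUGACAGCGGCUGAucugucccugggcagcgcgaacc
Mir34a, chr4:150068454-150068555, plus strand: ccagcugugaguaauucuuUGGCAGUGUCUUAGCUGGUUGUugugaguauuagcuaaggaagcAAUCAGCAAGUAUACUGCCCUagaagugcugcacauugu

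In the minimum free energy fold, 16 base pairs joined the miR-210 arms and 18 joined the miR-34a arms, a prediction from sequence and not a measurement. Neither hairpin overlapped another gene span in the RefSeq table. The nearest annotated genes were Rassf7, 2725 bp from Mir210, and the noncoding Gm13067, 9736 bp from Mir34a. Mir34c (chr9:51103034-51103110) lies 451 bp from Mir34b (chr9:51103562-51103645), and both fall within the spans of Btg4 (51102147 to 51119924) and Hoatz (51081310 to 51105834). The table gives spans only, so exon, intron and strand relations were not assessed.

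Library totals ranged from 3280688 to 4312555 miRNA counts. Of the 1907 miRNAs, 357 had enough counts to be tested, and all 5 strands were among them. Levels are CPM, library-scaled counts with TMM factors, and group levels are means with the SD of 3 libraries. A count stands for a whole short RNA, so no length term enters when levels of different miRNAs are set side by side. Whether library preparation captured different strands equally was not tested. Ranks, shares and ratios between strands are therefore of counts and not of molecules in the cells. Since whole cultures were sampled, fewer cells of a type and less RNA per cell cannot be told apart.

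As a sum, the miRNAs known for macrophages were abundant, and the sums of other cells' markers were lower. The 7 myeloid markers summed to between 294517 and 319502 CPM in control and between 290498 and 344767 CPM in LPS libraries. Most of this was miR-22-3p (means of 232959 CPM in control and 235059 CPM after LPS) and miR-142a-5p (56253 and 57063 CPM). Not every myeloid marker was abundant, and miR-142a-3p was at 0 in all 6 libraries. miR-511-5p stood at 38.3 CPM in control and 29.2 CPM after LPS, below the epithelial marker miR-141-3p (126.1 and 122.9 CPM). Erythroid markers (4) summed to 0 to 5 counts per library, stromal markers (5) to 1 to 9 and endothelial markers (2) to 0 to 1. The lymphocyte markers (2) summed to between 56.3 and 71.3 CPM in control and between 63.7 and 77.6 CPM in LPS libraries, almost all of it miR-150-5p. The 9 epithelial and ciliated markers summed to between 267.7 and 309.4 CPM in control and between 241.6 and 318.8 CPM in LPS libraries. Of these 9, 8 were detected and tested, led by miR-141-3p, and miR-205-5p was at 0. How reads that match several hairpins were counted is not known, and a strand listed at 0, such as miR-142a-3p, may not be absent from the cells. The part of other cells in the values below was not tested.

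The 5 strands spanned a wide range of levels. By mean over all 6 libraries, control and LPS together, miR-210-3p was the most abundant (rank 55 of 357), followed by miR-34a-5p (rank 87), miR-34c-5p (rank 144), miR-210-5p (rank 146) and miR-34a-3p (rank 331). By the same mean, miR-210-3p stood next to miR-423-5p (1122 CPM) and miR-30a-5p (1021 CPM), and miR-34a-5p next to miR-19a-3p (260.8 CPM) and miR-1249-3p (246.7 CPM). miR-34c-5p stood between miR-1839-3p (85.8 CPM) and miR-378a-5p (76.0 CPM), and miR-210-5p between miR-378a-5p and miR-139-5p (71.1 CPM). miR-34a-3p stood between miR-125b-1-3p (3.302 CPM) and miR-10b-5p (3.24 CPM). Neighbours in the order of the 5 were apart in every library of both groups, with 1 exception. miR-34c-5p and miR-210-5p did not overlap in controls, where miR-34c-5p was higher, but overlapped after LPS.

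**Figure D1:**
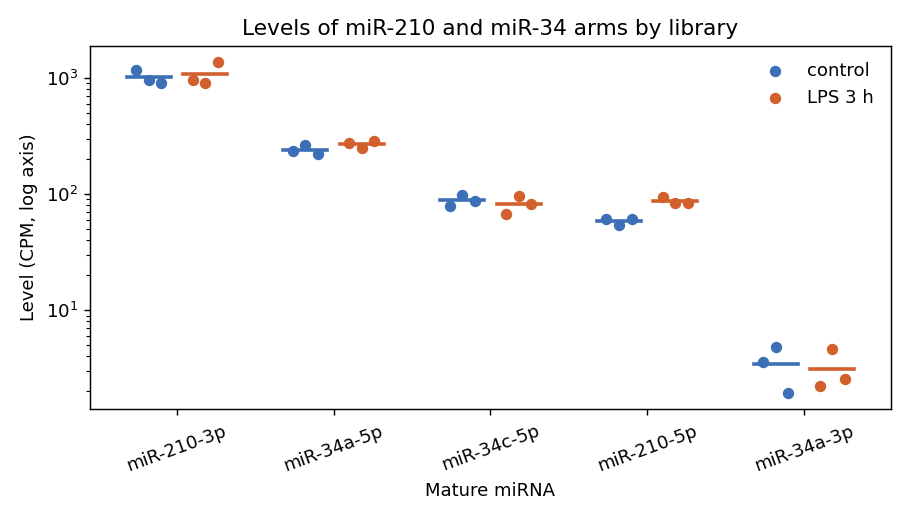
Level in CPM (log axis) of each of the 5 strands in the 3 control and 3 LPS libraries; points are libraries and bars are group means. The LPS points of miR-210-5p, from 83.3 to 94.0 CPM, all lie above its control points, while the other 4 strands overlap between groups.

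LPS at 3 h was followed by a rise of the scarcer miR-210 arm, while the other 4 strands did not pass the test. The call rule, an edgeR quasi-likelihood p below 0.05 after Benjamini-Hochberg adjustment over all 357 miRNAs, was met by 18 miRNAs (5.04%), of which 13 rose (3.64%). Of the 5 strands, 1 passed. Full separation of the groups, with no overlap between control and LPS libraries, was seen in 57 of 357 miRNAs (16%), 31 of them with LPS higher (8.68%), and in 1 of the 5 strands.

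miR-210-5p, the less abundant arm of the hypoxia-linked hairpin, held 60.8, 54.6 and 61.3 CPM in control replicates 1 to 3 and 94.0, 83.3 and 83.5 CPM in LPS replicates 1 to 3. Every LPS library lay above every control library. The group levels were 58.9 ± 3.74 and 86.9 ± 6.13 CPM (SD, n = 3 per group). This gave a log2 fold change of 0.56 (SE 0.14), or 1.47-fold with a 95% interval of 1.19 to 1.82. The edgeR adjusted p was 0.0415, and by log2 fold change the strand ranked 21 from the top of 357. The counts behind it were 225 to 256 in controls and 297 to 340 after LPS. Its coefficient of variation was 6.34% in controls and 7.05% after LPS, close to the 6.39% and 5.57% that counting error alone would give at these depths. The call was near the threshold. Leaving out any 1 of the 6 libraries ended it, with edgeR adjusted p from 0.0598 (without LPS replicate 2) to 0.205 (without LPS replicate 1), and so did upper-quartile scaling (0.0918) and scaling by library totals (0.0793). The log2 fold change stayed between 0.47 and 0.64 in all 14 alternatives.

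**Figure D2:**
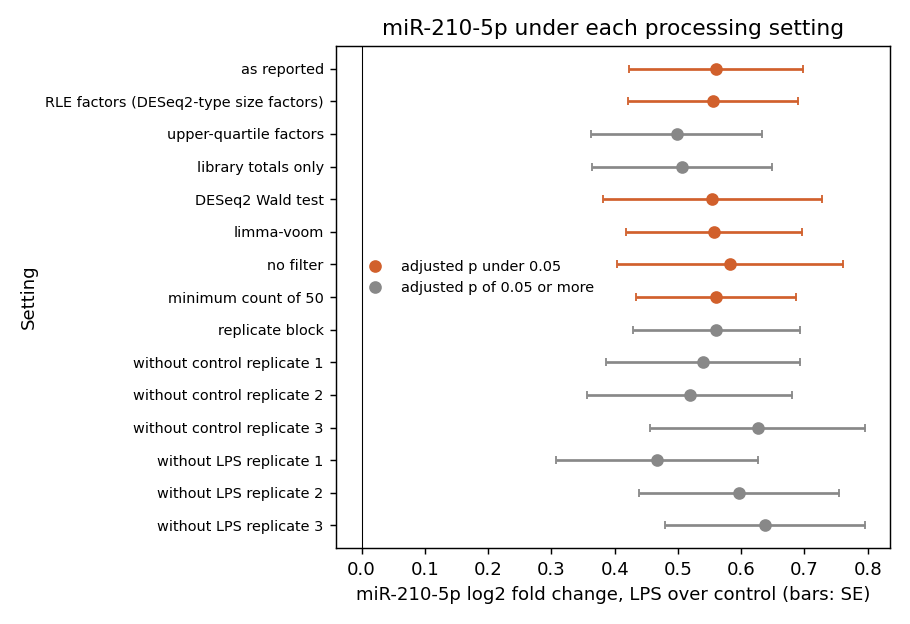
Log2 fold change of miR-210-5p, LPS over control, with its SE, as reported and under the 14 alternative settings; colour shows whether the adjusted p was below 0.05. The values lie between 0.47 and 0.64 throughout, and 9 of the 14 alternatives have an adjusted p of 0.05 or more.

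miR-210-3p, the arm that represses Iscu and Efna3, held 1185, 959.0 and 907.3 CPM in control replicates 1 to 3 and 970.8, 910.2 and 1363 CPM in LPS replicates 1 to 3. Control replicate 1 and LPS replicate 3 were the high libraries, and the other 4 lay within 907.3 to 970.8 CPM, so the groups overlapped. The group levels were 1017 ± 147.5 and 1081 ± 245.7 CPM (SD, n = 3 per group), with a log2 fold change of 0.09 (SE 0.17) and an edgeR adjusted p of 0.943. The 95% interval ran from 0.82-fold to 1.38-fold. This strand varied between libraries of a group far beyond counting error: its coefficient of variation was 14.5% in controls and 22.7% after LPS, where counting alone would give 1.54% and 1.57%. Without LPS replicate 3 the log2 fold change was -0.06, so its direction rests on that library.

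miR-34a-5p, the abundant arm of its hairpin and a repressor of Cdk6 and Bcl2, held 233.3, 263.3 and 223.5 CPM in control replicates 1 to 3 and 277.3, 251.2 and 288.2 CPM in LPS replicates 1 to 3. LPS replicates 1 and 3 were above all controls, and LPS replicate 2 was below control replicate 2. The group levels were 240.0 ± 20.7 and 272.2 ± 19.03 CPM, with a log2 fold change of 0.18 (SE 0.12) and an edgeR adjusted p of 0.727. The 95% interval ran from 0.94-fold to 1.36-fold, and the value stayed above 0 in all 14 alternatives.

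miR-34a-3p, its passenger strand, was scarce, at 15, 20 and 8 counts in control replicates 1 to 3 and 7, 19 and 10 counts in LPS replicates 1 to 3. These came to 3.45 ± 1.46 and 3.14 ± 1.33 CPM. Replicate 2 was highest in each group and the groups overlapped throughout. The log2 fold change was -0.11 (SE 0.41, edgeR adjusted p = 0.982), with a 95% interval from 0.49-fold to 1.75-fold. The coefficient of variation was 42.3% in each group, where counting alone would give 26.4% and 28.9%. Its direction turned without control replicate 2 (0.22), LPS replicate 1 (0.03) or LPS replicate 3 (0.08).

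miR-34c-5p, the strand from the Mir34b and Mir34c locus, held 78.6, 98.8 and 87.5 CPM in control replicates 1 to 3 and 67.7, 95.8 and 82.5 CPM in LPS replicates 1 to 3. The lowest library was LPS replicate 1 and the highest control replicate 2, and the groups overlapped. The group levels were 88.3 ± 10.1 and 82.0 ± 14.1 CPM, with a log2 fold change of -0.10 (SE 0.16), an edgeR adjusted p of 0.943 and a 95% interval from 0.72-fold to 1.20-fold.

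**Figure D3:**
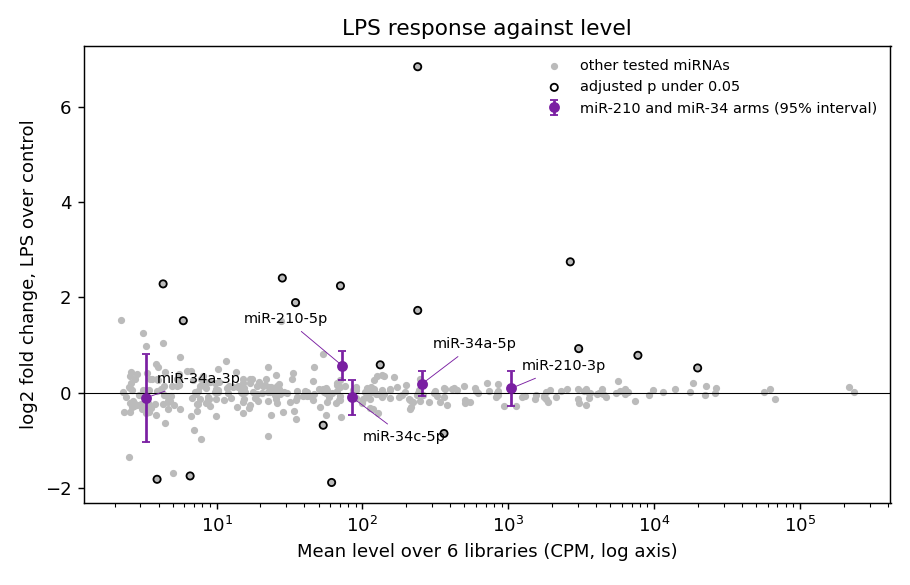
Log2 fold change, LPS over control, against mean level in CPM (log axis) for all 357 tested miRNAs, with the 18 that passed the test ringed and the 5 strands drawn with 95% intervals. miR-210-5p at 0.56 is the strand whose interval lies above 0, and miR-34a-3p has the widest interval.

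The arm ratio was then compared within each library, which removes library scaling. In miR-210 the 5p arm made up 4.88%, 5.39% and 6.33% of the hairpin's counts in control replicates 1 to 3 and 8.83%, 8.39% and 5.77% in LPS replicates 1 to 3. LPS replicates 1 and 2 lay above all controls, and LPS replicate 3 lay between control replicates 2 and 3. Exact Clopper-Pearson 95% intervals, which cover counting error only, were 7.89% to 9.84% for LPS replicate 1 and 5.18% to 6.41% for LPS replicate 3, so these LPS libraries differed from each other beyond counting error. The group shares were 5.53% ± 0.738 and 7.66% ± 1.65 (SD, n = 3 per group). Expressed as a ratio, 17.3 ± 2.37 strands of miR-210-3p were counted per strand of miR-210-5p in controls and 12.5 ± 3.304 after LPS.

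Limma was fitted to the log2 level of the less abundant minus the abundant arm in 100 hairpins with both arms tested, and 12 of these (12%) passed at an adjusted p below 0.05. Neither miR-210 nor miR-34a was among them, and miR-210 was 1 of 17 hairpins with an unadjusted p below 0.05. For miR-210 the 5p arm differed from the 3p arm by 0.48 in log2 fold change (SE 0.21, 95% interval 0.04 to 0.93, limma adjusted p = 0.221), beside a median of 0.03 over all 100 hairpins. Thus the rise of miR-210-5p was called, while its difference from the 3p arm was not. Without LPS replicate 3, where both miR-210-3p and the hairpin total were highest, the difference was 0.69 and passed (limma adjusted p = 0.037). The adjusted p ranged from 0.037 to 0.637 over the alternatives.

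For miR-34a the 3p arm made up 1.503%, 1.81% and 0.86% of counts in control replicates 1 to 3 and 0.79%, 1.82% and 0.87% in LPS replicates 1 to 3. The intervals of all 6 libraries overlapped, the widest being 1.10% to 2.83% in LPS replicate 2. The group shares were 1.39% ± 0.485 and 1.16% ± 0.571, and the arm difference was -0.29 (SE 0.41, limma adjusted p = 0.828). The 3p arm of miR-34c was scarcer still, at 5, 2 and 2 counts in control and 2, 3 and 5 counts in LPS libraries, and was not tested. It made up 0.84% ± 0.560 of the counts of its hairpin in controls and 1.07% ± 0.396 after LPS. In miR-34b both arms were scarce, and the 3p arm held 48.2% ± 17.97 of counts in controls and 41.3% ± 13.4 after LPS, on 9 to 35 counts per library.

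**Figure D4:**
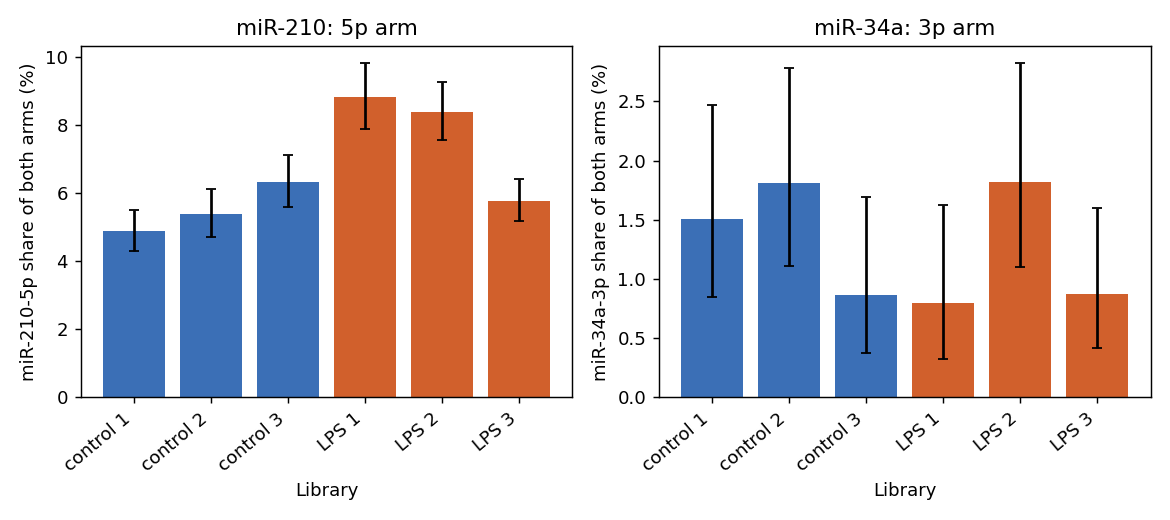
Share of the scarcer arm in the counts of its hairpin for miR-210 (5p) and miR-34a (3p), 1 bar per library with exact Clopper-Pearson 95% intervals. The miR-210-5p share is 8.39% or more in LPS replicates 1 and 2 but 5.77% in LPS replicate 3, and the miR-34a-3p share is below 2% in all libraries.

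The strands found with the miR-34a-5p seed were read together with miR-34c-5p as the 5p arms of the miR-34 and miR-449 families. miR-34c-5p, whose seed was not compared, was included by family name. miR-449 is best known, with miR-34b and miR-34c, from multiciliated epithelium. Summed over these 6 names, the family stood at 322.1, 373.2 and 320.8 CPM in control replicates 1 to 3 and 356.4, 361.2 and 385.4 CPM in LPS replicates 1 to 3. The groups overlapped, with means of 338.7 ± 29.9 and 367.7 ± 15.5 CPM. miR-34a-5p made up 70.9% ± 1.41 of the family's counts in controls and 74.0% ± 4.18 after LPS, and miR-34c-5p 26.0% ± 1.49 and 22.3% ± 3.84.

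The remaining family members were near the limit of detection. miR-34b-5p had 9, 9 and 3 counts in control and 6, 20 and 16 counts in LPS libraries, and miR-34b-3p had 4 to 8 and 6 to 15, neither enough to be tested. LPS replicates 2 and 3 held the most miR-34b-5p, and LPS replicate 1 fell within the control range. miR-449a-5p stood at 4.83 ± 1.49 and 5.83 ± 1.05 CPM (log2 fold change 0.28, SE 0.30, edgeR adjusted p = 0.943). miR-449c-5p stood at 3.85 ± 1.07 and 3.995 ± 0.679 CPM (0.04, SE 0.31, edgeR adjusted p = 0.998), with a sign that turned under 4 alternatives. miR-449b and miR-449c-3p had 0 counts in all 6 libraries, and miR-449a-3p had 0 or 1.

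**Figure D5:**
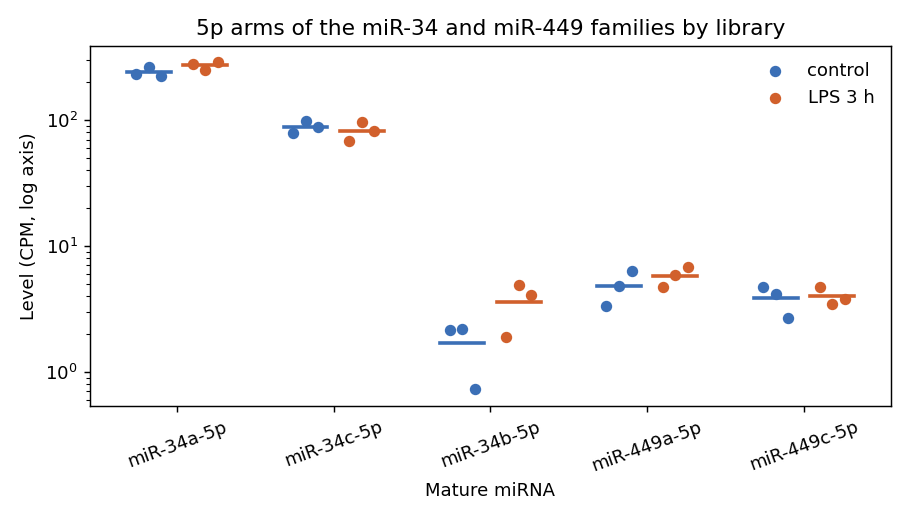
Level in CPM (log axis) of the 5p arms of the miR-34 and miR-449 families in the 3 control and 3 LPS libraries; points are libraries and bars are group means. miR-34a-5p and miR-34c-5p lie far above the other 3, which stay below 7 CPM in every library.

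Within the miR-34 family the ratio of miR-34a-5p to miR-34c-5p was 2.97, 2.67 and 2.55 in control replicates 1 to 3 and 4.09, 2.62 and 3.50 in LPS replicates 1 to 3. LPS replicates 1 and 3 were above the controls and LPS replicate 2 was among them, so the groups overlapped (2.73 ± 0.215 and 3.40 ± 0.740). The ratio of miR-210-3p to miR-34a-5p was 4.26 ± 0.738 in controls and 3.95 ± 0.676 after LPS. Both miR-210 arms together made up 0.109% ± 0.0112 of all miRNA counts in controls and 0.114% ± 0.0213 after LPS.

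None of the other tested miRNAs linked to p53 passed the test. Of 23 further arms on this list, 9 were tested, with 0 calls by edgeR, DESeq2 or limma-voom. Over all 357, edgeR called 18 (5.04%), so with 9 tested, 0 calls does not set the list apart. Of these 9, 0 had an unadjusted edgeR p below 0.05, beside 42 of all 357 (11.8%). Their median log2 fold change was 0.06, beside 0.01 over all 357. The 4 with the largest absolute values were miR-200c-3p, known for restraining epithelial-mesenchymal transition (0.22, SE 0.22), miR-16-1-3p (-0.20, SE 0.15), miR-194-5p (0.19, SE 0.22) and miR-15a-3p (0.16, SE 0.22). The sign of miR-194-5p turned without LPS replicate 1 (-0.04).

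No other tested arm linked to hypoxia passed the test upward. Of 28 further arms on this list, 14 were tested, and edgeR, DESeq2 and limma-voom each called 0 higher and 2 lower. Over all 357, edgeR called 13 higher (3.64%) and 5 lower (1.4%). With 14 tested, 0 higher does not set the list apart. The same 2 of 14 had an unadjusted edgeR p below 0.05, beside 11.8% of all 357. The median log2 fold change was -0.10. Both that fell were passenger strands of the miR-26 family, whose main strands repress the methyltransferase Ezh2. miR-26a-2-3p went from 10.1 ± 1.32 to 3.05 ± 1.33 CPM (-1.75, SE 0.31, edgeR adjusted p = 0.0063), a call lost without LPS replicate 3 (0.0506). miR-26b-3p went from 66.5 ± 8.65 to 41.2 ± 1.18 CPM (-0.69, SE 0.16, edgeR adjusted p = 0.031), a call that held without control replicate 1 but was lost without each of the other 5 libraries (up to 0.168). The next largest were miR-181b-1-3p (-0.31, SE 0.23) and miR-27b-5p (-0.19, SE 0.12), which did not pass.

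Profiles over the 6 libraries were compared with those of 251 other tested miRNAs with a mean of at least 10 CPM, by Pearson's r of log2 CPM. These values describe 6 libraries in 2 groups, and all profiles share library preparation, scaling and any LPS effect. miR-210-5p was most like miR-125a-3p (r = 0.98), miR-155-3p (0.97) and miR-155-5p (0.97), whose log2 fold changes were 2.24, 6.85 and 2.75. miR-210-3p was most like miR-1839-3p (0.95), miR-301b-3p (0.95) and miR-101a-3p (0.94), whose log2 fold changes were 0.06, 0.02 and 0.08. miR-34a-5p was most like let-7i-3p (0.95), miR-362-3p (0.93) and miR-17-5p (0.93), whose log2 fold changes were 0.81, 0.06 and 0.09. let-7i-3p itself was higher in every LPS library but was not called (edgeR adjusted p = 0.0515). miR-34c-5p was most like miR-8114 (0.93), miR-107-3p (0.90) and miR-7688-5p (0.88), whose log2 fold changes were 0.01, -0.06 and 0.04. miR-34a-3p, on 7 to 20 counts per library, was most like miR-181b-5p (0.94), miR-98-3p (0.89) and miR-181a-1-3p (0.87). The log2 fold changes of these 3 were 0.08, -0.11 and -0.20. The 3 nearest profiles of each miR-210 arm had no miRNA in common. Lists of 3 from 251 rarely share a member, so this is no test of a difference between the arms.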

How the data were processed

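Per the labels' protocols, total RNA went into libraries of the TruSeq Small RNA kit. The deposited values are raw counts per mature miRNA. Novoalign and SAMtools 0.1.19, with the builds mm10 and GRCm38.p1, are named in the submitters' processing notes. Not given in the sources used here: the counting tool, the annotation release, strand use and the handling of reads with several matches. From these counts, changes were tested over the whole table with edgeR 4.0.16 (R 4.3.3, quasi-likelihood test, TMM factors from 0.96 to 1.053, filterByExpr with a minimum count of 10, Benjamini-Hochberg). Intervals come from the fold change, its SE and the fit's degrees of freedom. Arm balance was fitted with limma 3.58.1 on log2 CPM with a prior count of 2 and a variance trend. DESeq2 1.42.0 and limma-voom were alternatives. RNAfold 2.7.2 folded the hairpins. Fits were tested on simulated data with changes larger than that of miR-210-5p, which does not show whether an effect of its size would be found. Named were the 5 strands, their family and seed relatives, the nearest 3 profiles, neighbours in level, and up to 4 arms of each list, called ones first. Members and lists were chosen with earlier results of these data known. Libraries of a group differed beyond sampling noise (chi-square of at least 53.0 per degree of freedom), so none was merged. Reads carry no molecular identifiers.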

Additional observations from a re-analysis of the deposited data

How the results depend on the processing

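Over 14 alternatives, miR-34a-5p kept a log2 fold change from 0.12 to 0.26 and miR-34c-5p one from -0.22 to -0.01, and neither passed in any. miR-210-5p lost its call with upper-quartile factors (0.50, edgeR adjusted p = 0.0918), with library totals only (0.51, 0.0793) and without any 1 library (0.47 to 0.64). It kept it with RLE factors, DESeq2, limma-voom, no filter and a minimum count of 50 (adjusted p from 0.025 to 0.0488). With a replicate block it was 0.56 (adjusted p = 0.0723), and the block gave 17 calls in place of 18. Same-numbered libraries deviated together at r = 0.02, 0.14 and -0.04, and not every library correlated best with its own number. With 3 libraries per group, such values cannot settle whether the numbers pair libraries, and the labels do not say. Without LPS replicate 3, miR-210-3p was -0.063, the miR-210 arm difference was 0.69 and passed, and all calls numbered 11; leaving out single libraries gave 11 to 18 calls, miR-210-3p from -0.063 to 0.21 and arm differences from 0.36 to 0.69. miR-34a-3p reversed without control replicate 2 (0.22), LPS replicate 1 (0.03) or LPS replicate 3 (0.08), with a range from -0.52 to 0.22. miR-194-5p was -0.039 without LPS replicate 1, within -0.039 to 0.32 over single libraries left out. miR-449c-5p was -0.020 with upper-quartile factors, -0.013 with library totals, -0.13 without control replicate 3 and -0.12 without LPS replicate 1, within -0.13 to 0.17 over single libraries left out. The arm fit without a variance trend called 7 hairpins in place of 12. Leaving out 1 of 3 libraries cannot move a group mean by a whole SD, so the shares, ratios and sums had no test of stability. The cause of these changes was not tested. A minimum count of 50 left miR-34a-3p untested.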
